A study of Mus musculus with 2 samples.

Results

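The mouse genome holds 2 copies each of the genes for let-7a, let-7c and let-7f, named Mirlet7a-1, Mirlet7a-2, Mirlet7c-1, Mirlet7c-2, Mirlet7f-1 and Mirlet7f-2. These 6 loci, of 2202 annotated miRNA genes, were taken by gene symbol from microRNA sequencing of left cerebral cortex. The mice, 18 to 20 months old, were B6CASTF1/J, a cross of the C57BL/6J and CAST/EiJ strains, with no treatment named. There is 1 group of 2 biological replicates, prepared from total RNA with a size range under 30 nt. Sex is female in the structured labels and male in the free text. A single donor identifier covers both libraries under different biosample identifiers, so only the replicate numbers speak for separate animals and the spread may be technical. With 1 group there was no contrast to test, and the values below describe levels and the spread of 2 libraries.

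let-7 miRNAs are short RNAs that lower the output of messenger RNAs matching their seed, and they are known for rising as cells leave the progenitor state and for being abundant in adult brain. Each locus makes a primary transcript that is cut to a hairpin and then to a duplex. In this family the strand from the 5′ side of the hairpin (5p) is the one mainly kept, and the 3′ strand (3p) is mainly discarded. The RNA-binding protein LIN28 binds let-7 precursors and blocks their maturation, and terminal uridylation of the precursor is part of that control.

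The mature 5p sequences are shown because both copies of a pair yield the same one. They are given 5′ to 3′ from RefSeq (GRCm38.p6), with the seed, bases 2 to 8, in capitals.
let-7a-5p: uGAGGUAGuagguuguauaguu
let-7c-5p: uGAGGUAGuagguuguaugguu
let-7f-5p: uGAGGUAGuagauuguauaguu
All 3 have the same seed. Counted from the 5′ end, let-7c-5p differs from let-7a-5p by A19G and let-7f-5p differs from it by G12A. Each of the 3 sequences of 22 nt was found in the hairpins of exactly 2 of the 2202 annotated genes, the copies of its own pair, so nothing within the 5p strand separates the copies. The reverse complement of let-7f-5p was also found in Gm24111, a miRNA gene annotated opposite Mirlet7f-1.

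The hairpins of the 6 loci, which were identical in RefSeq and in GENCODE M21, are shown because the copies of a pair differ only in the bases outside the shared 5p strand. The 5p and 3p strands are in capitals, in that order.
Mirlet7a-1: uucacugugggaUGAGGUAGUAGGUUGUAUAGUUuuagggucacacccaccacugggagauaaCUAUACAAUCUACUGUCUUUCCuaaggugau
Mirlet7a-2: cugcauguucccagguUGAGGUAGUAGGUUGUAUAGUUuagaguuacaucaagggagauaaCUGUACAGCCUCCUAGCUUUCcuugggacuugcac
Mirlet7c-1: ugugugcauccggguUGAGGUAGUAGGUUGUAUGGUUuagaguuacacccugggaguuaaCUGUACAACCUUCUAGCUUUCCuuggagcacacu
Mirlet7c-2: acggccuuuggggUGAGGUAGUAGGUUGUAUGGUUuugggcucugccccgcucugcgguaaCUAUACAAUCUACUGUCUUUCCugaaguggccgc
Mirlet7f-1: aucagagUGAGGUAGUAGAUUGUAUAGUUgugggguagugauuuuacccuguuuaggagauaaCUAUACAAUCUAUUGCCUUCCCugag
Mirlet7f-2: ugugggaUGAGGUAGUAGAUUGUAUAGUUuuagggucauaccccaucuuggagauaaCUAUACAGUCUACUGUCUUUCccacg
In the hairpins of the let-7a pair the longest shared run was 23 nt, in the let-7c pair it was also 23 nt, and in the let-7f pair it was 22 nt. The first base past the 5p strand separated the let-7f copies. The let-7a and let-7c copies parted only at the second base past it. A read starting at the first base of the 5p strand and matching the hairpin therefore had to reach 23 nt to belong to 1 let-7f locus, and 24 nt to belong to 1 let-7a or let-7c locus.

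The 3p strands separate most of the loci, with 1 exception that crosses the pairs. let-7a-1-3p and let-7c-2-3p are the same sequence of 22 nt, so neither strand of Mirlet7a-1 or of Mirlet7c-2 belongs to that locus alone. The run shared by those 2 hairpins, 26 nt, was longer than that within any of the 3 pairs. The 3p strands of Mirlet7a-2, Mirlet7c-1, Mirlet7f-1 and Mirlet7f-2 were each found in 1 hairpin. Over the positions they share, let-7f-2-3p differs from let-7a-1-3p by the single substitution A8G. Of all windows of 22 nt in a hairpin, 90.4% in Mirlet7a-1 and 90.5% in Mirlet7c-2 occurred at no other annotated miRNA gene. The share was 97.3% in Mirlet7a-2 and in Mirlet7c-1, 98.5% in Mirlet7f-1 and 98.4% in Mirlet7f-2. The search covered annotated miRNA genes on both strands with exact matches, and the rest of the genome was not searched.

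**Figure D1:**
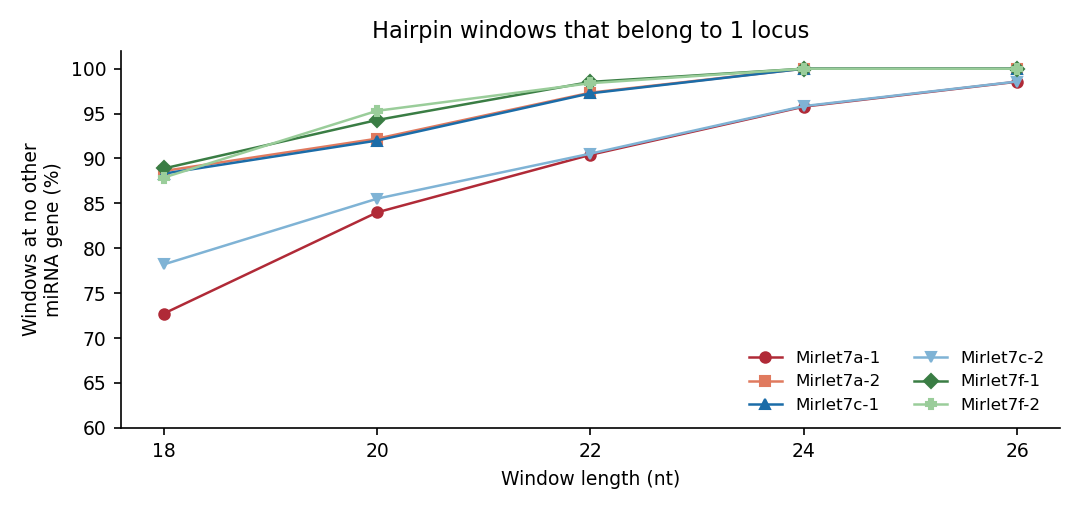
Share of windows of 18 to 26 nt in each hairpin (x axis, window length in nt) that occur at no other annotated miRNA gene (y axis, %). Mirlet7a-1 and Mirlet7c-2 lie below the other 4 loci at every length up to 26 nt, while the other 4 reached 100% at 24 nt.

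The 6 loci lie in 5 places. Mirlet7a-1 (ENSMUSG00000065421.3, chr13:48538179-48538272, mm10, minus strand) and Mirlet7f-1 (ENSMUSG00000105621.1, chr13:48537829-48537917) are neighbours within an exon of the lincRNA 6720427I07Rik, with Mirlet7d downstream. Mirlet7a-2 (ENSMUSG00000092770.1, chr9:41536716-41536811, plus strand) lies in an intron of 3110039I08Rik and of Gm49317. Mirlet7c-1 (ENSMUSG00000065557.3, chr16:77599657-77599750, plus strand) lies in an intron of Mir99ahg, the host transcript of Mir99a. Mirlet7c-2 (ENSMUSG00000065608.1, chr15:85706603-85706697, plus strand) lies beside Mirlet7b in an exon of Lncppara, a non-coding gene. Mirlet7f-2 (ENSMUSG00000065602.1, chrX:151912346-151912428, plus strand) lies beside Mir98 in an intron of Huwe1, which codes for a ubiquitin ligase.

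The libraries held 5166667 and 4459993 sense counts over all miRNA genes, out of 14842903 and 12785704 reads. Levels are counts per 1000000 sense counts (CPM), and a count of 0 allows up to 0.581 and 0.673 CPM. Reads that fit several genomic places stand on a line of their own and are not split by gene. There were 6203588 of them in replicate 1 (41.8% of all reads) and 5928954 in replicate 2 (46.4%). Reads of the shared 5p strands may be among them, and how many was not tested. Of 12 neuronal miRNA genes 9 were at or above 2 CPM in each library, and the list summed to 79277 and 66141 CPM. The 3 genes of miR-124, a defining miRNA of neurons that also has several copies, were nearly absent by sense counts. Mir124a-1 had 21 counts in the first library and 6 in the second, and the others had 1 or 2 in each. Oligodendrocyte markers summed to 3945 and 3862 CPM, the endothelial Mir126a stood at 21256 and 10411 CPM, and the mural cell markers at 5077 and 9896 CPM. Leukocyte markers summed to 1338 and 1253 CPM, the red cell marker stood at 47.0 and 39.7 CPM and the liver marker at 54.6 and 60.1 CPM. Striated muscle markers summed to 18.2 and 65.5 CPM, with 4 of 5 at 0 in both libraries. Those 4 are the copies of Mir1a and of Mir133a. Reads that fit several places are not split by gene, so a 0 at these copies cannot show absence. The pluripotent cell markers summed to 0 and 0.448 CPM. The part of cell makeup in the levels below was not tested.

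All 6 loci reached 2 CPM in each library, the level called expressed here, against 18.6% of all annotated miRNA genes. Their summed level was 5099 CPM in the first library and 6556 CPM in the second (5828 ± 1030.1, SD, n = 2), which is 0.510% (95% exact interval 0.504% to 0.516%) and 0.656% (0.648% to 0.663%) of sense counts. The 3 pairs contributed unequally. The let-7f loci held 3142 and 4084 CPM, the let-7c loci 1546 and 1884 CPM, and the let-7a loci 411 and 587 CPM. All intervals given here cover counting error and nothing else. The sources record no molecular identifiers, so each read was counted as separate, and the intervals may be too narrow.

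Mirlet7f-2, which makes let-7f from the X chromosome, had the highest level of the 6, 3001 CPM in replicate 1 (95% exact Poisson interval 2954 to 3049) and 3772 CPM in replicate 2 (3715 to 3829). It held 58.9% and 57.5% of the counts of the 6 loci and ranked 54th and 45th of all genes. Mirlet7c-2, which makes let-7c from chromosome 15, followed at 1211 CPM (1181 to 1241) and 1457 CPM (1422 to 1493), ranks 87 and 72. Neither locus overlapped any of the other 5 in the range of its libraries.

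The other 4 loci lay lower, and their ranges ran into one another. Mirlet7c-1, the chromosome 16 copy of let-7c, had 335 CPM (319 to 351) and 427 CPM (408 to 447). Mirlet7a-1, the chromosome 13 copy of let-7a, had 282 CPM (268 to 297) and 409 CPM (390.2 to 428). The ranges of these 2 loci overlapped, although Mirlet7c-1 was the higher in each library. Mirlet7f-1, the chromosome 13 copy of let-7f, had 141 CPM (131 to 152) and 313 CPM (296 to 329), and overlapped the ranges of its neighbours in this order. Mirlet7a-2, the chromosome 9 copy of let-7a, had the lowest level at 129 CPM (119 to 139) and 179 CPM (167 to 192). The order of the 6 was the same in both libraries and per annotated gene length, and the mean level of the highest was 22.02 times that of the lowest. All 6 lay above the median level of expressed miRNA genes, 88.9 CPM.

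**Figure D2:**
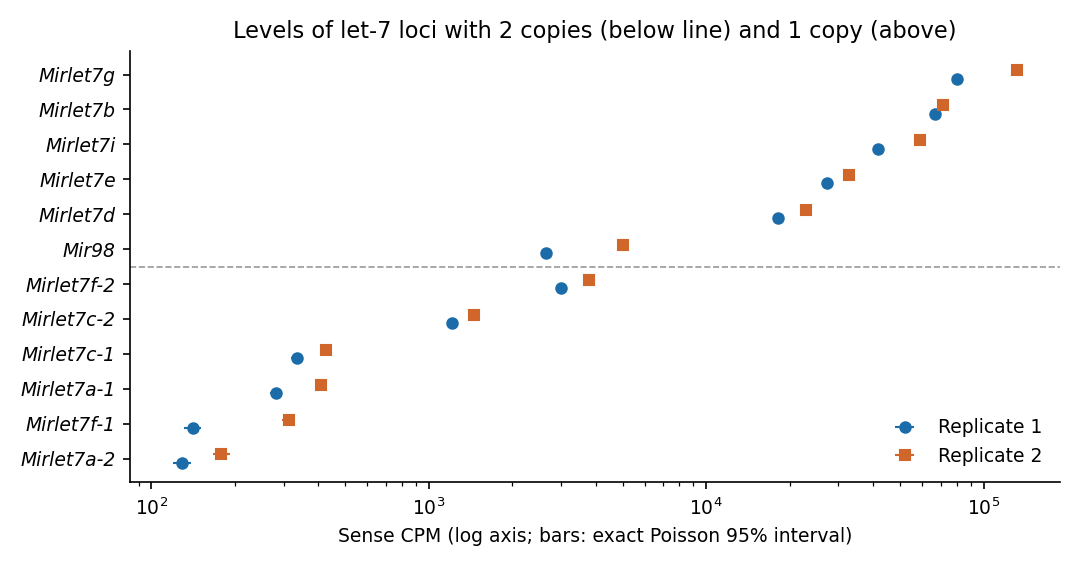
Sense CPM (x axis, log scale) of the 6 loci with 2 copies, below the dashed line, and of 6 let-7 family genes with 1 copy, above it, in replicate 1 (circles) and replicate 2 (squares), with exact Poisson 95% intervals. Mirlet7f-2 reaches into the range of Mir98, and the other 5 loci lie below every single-copy gene.

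The 6 family genes whose 5p strand comes from a single locus, Mirlet7b, Mirlet7d, Mirlet7e, Mirlet7g, Mirlet7i and Mir98, were all expressed too. They held 46.5 times the summed CPM of the 6 loci in replicate 1 and 49.4 times in replicate 2, and 46.0 and 48.8 times when counts were divided by gene length. Of the sense counts of these 12 genes, the 6 loci with 2 copies held 2.11% (95% exact interval 2.08% to 2.13%) in replicate 1 and 1.99% (1.96% to 2.01%) in replicate 2. let-7e-5p differs from let-7a-5p by a single base, U9G, as let-7c-5p and let-7f-5p do. Mirlet7e stood at 27203 and 32838 CPM, while the let-7a loci summed to 411 and 587 CPM. For Mirlet7e a read of 17 nt from the first base of the 5p strand matched no other annotated miRNA gene. How far the difference in level reflects reads set apart as having several places was not tested.

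Within a pair, the split of counts between the copies was compared inside each library, where library size cancels. In let-7a the first locus was the higher, with 1457 and 666 counts for Mirlet7a-1 and Mirlet7a-2 in replicate 1 and 1823 and 797 in replicate 2. Mirlet7a-1 thus held 68.6% of the pair (95% exact interval 66.6% to 70.6%) in replicate 1 and 69.6% (67.8% to 71.3%) in replicate 2. Its log2 ratio to Mirlet7a-2 was 1.16 ± 0.05 (SD, n = 2), and the intervals of the libraries overlapped.

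In let-7c the second locus was the higher. Mirlet7c-1 had 1730 counts and Mirlet7c-2 had 6257 in replicate 1, and in replicate 2 they had 1904 and 6500. The share of Mirlet7c-1 was 21.7% (20.8% to 22.6%) and 22.7% (21.8% to 23.6%), a log2 ratio of -1.81 ± 0.06. The intervals of the libraries overlapped here too. From the start of the 5p strand both loci need a read of 24 nt to be told apart. The 3p strand is shared with Mirlet7a-1 at Mirlet7c-2 and found at no other annotated miRNA gene for Mirlet7c-1. The part of these differences in the split was not tested, since the tables do not separate the strands.

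In let-7f the second locus was again the higher, and by more. Mirlet7f-1 had 729 counts against 15507 for Mirlet7f-2 in replicate 1, and 1394 against 16822 in replicate 2. Mirlet7f-1 held 4.49% of the pair (4.18% to 4.82%) in replicate 1 and 7.65% (7.27% to 8.05%) in replicate 2, and these counting intervals did not overlap. They leave out variation between library preparations, and the shift lay inside the range of the other miRNAs with 2 copies described next. The log2 ratio was -4.41 in replicate 1 and -3.59 in replicate 2, a mean of -4.00 ± 0.58. Mirlet7f-1 is also the 1 locus of the 6 with an annotated miRNA gene on the opposite strand, Gm24111, and its reads are counted only where strand is used. In each pair the higher copy was the one whose deciding bases past the 5p strand were only U. These were UU for Mirlet7a-1 and Mirlet7c-2 and U for Mirlet7f-2. The lower copies had UA at Mirlet7a-2 and Mirlet7c-1 and G at Mirlet7f-1. The part of these bases in the splits was not tested.

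By symbol, 43 miRNAs in the annotation have exactly 2 numbered copies, and 23 of these pairs reached a pooled count of 20. For the 20 of them outside let-7, the absolute value of the mean log2 ratio ran from 0.26 (Mir7) to 9.34 (Mir219a). Its median was 1.76. Where the higher copy changed between libraries, as in Mir26a at -2.69 and 1.03, opposite signs partly cancel in this mean. By this measure the let-7a pair was more uneven than 8 of these 20, the let-7c pair more than 10 and the let-7f pair more than 15. The same copy was the higher in both libraries in 16 of the 20, as it was in all 3 let-7 pairs. The ratio moved between libraries by 0.06 in let-7a and 0.08 in let-7c on the log2 scale, and by 0.82 in let-7f. The median of the other pairs was 0.69, within a range of 0.03 to 3.91. The 3 let-7 pairs thus lay inside the range of other pairs in their unevenness.

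**Figure D3:**
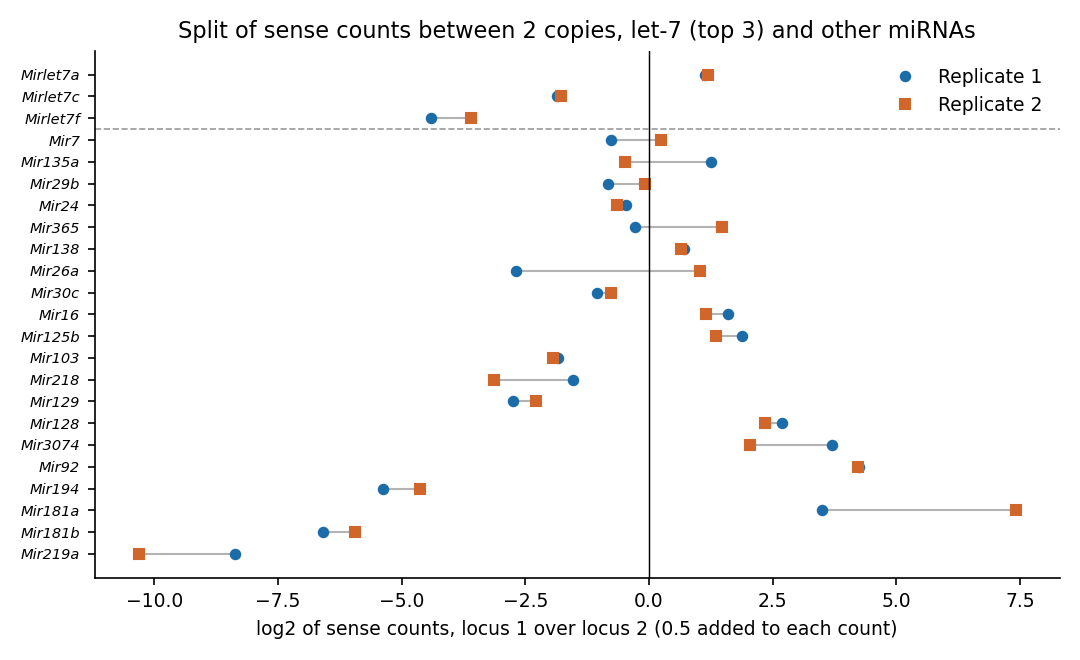
Log2 ratio of sense counts of locus 1 to locus 2 (x axis, 0.5 added to each count) in replicate 1 (circles) and replicate 2 (squares) for the 3 let-7 pairs, above the dashed line, and for 20 other miRNAs with 2 copies. The libraries nearly coincide for let-7a and let-7c, and the let-7f points lie at -4.41 and -3.59.

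Each locus has at least 1 annotated miRNA gene on the same strand within 10 kb, so that levels could be set beside a neighbour that may share its primary transcript. The 5p strands of the let-7 family neighbours, each found at a single locus, are shown in the same form as above.
let-7b-5p: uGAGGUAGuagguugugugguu
let-7d-5p: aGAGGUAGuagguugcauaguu
miR-98-5p: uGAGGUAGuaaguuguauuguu
let-7b-5p differs from let-7c-5p by the single substitution A17G, and let-7d-5p differs from let-7a-5p by U1A and U16C. miR-98-5p differs from let-7a-5p by G11A and A19U. The seed is the same in all.

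In the chromosome 13 cluster, Mirlet7d stood at 18144 and 22925 CPM. That was 64.3 and 56.1 times the counts of Mirlet7a-1, which lies 2064 bp away, and 129 and 73.3 times those of Mirlet7f-1. Mirlet7a-1 and Mirlet7f-1 are 261 bp apart, and Mirlet7a-1 had 2.00 times the counts of Mirlet7f-1 in replicate 1 and 1.31 times in replicate 2. On chromosome 15, Mirlet7b stood at 67094 and 71708 CPM, 55.4 and 49.2 times Mirlet7c-2.

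Neighbours outside the let-7 family gave ratios of the same order. Mir100, a miRNA of the miR-99 family 5211 bp from Mirlet7a-2, stood at 4732 and 4925 CPM, 36.7 and 27.6 times that locus. Mir99a, 656 bp from Mirlet7c-1 in the same host transcript, stood at 15261 and 16354 CPM, 45.6 and 38.3 times that locus. Divided by gene length, the log2 ratio of Mirlet7c-1 to Mir99a moved from -5.38 to -5.92, since the Mir99a hairpin is the shorter.

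In the X-linked cluster the levels of both genes lay close together. Mir98, 785 bp from Mirlet7f-2 and also in an intron of Huwe1, stood at 2652 and 5012 CPM, against 3001 and 3772 CPM for Mirlet7f-2. The log2 ratio of Mirlet7f-2 to Mir98 was 0.18 in replicate 1 and -0.41 in replicate 2, so that neither gene was the higher in both. The mean of -0.12 ± 0.42 was smaller than its spread, and per gene length it was 0.26.

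**Figure D4:**
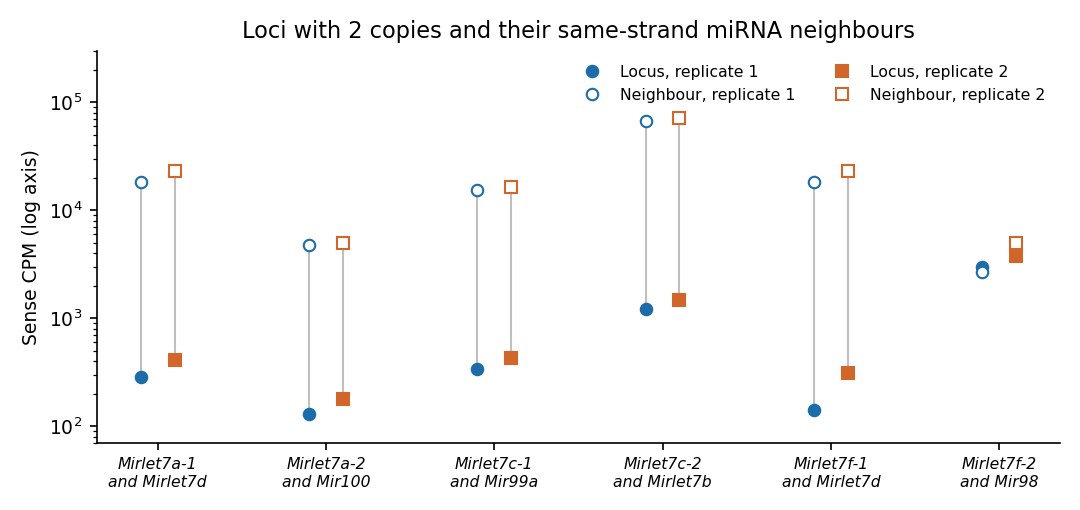
Sense CPM (y axis, log scale) of each locus with 2 copies (filled) and of a same-strand miRNA neighbour within 10 kb (open) in replicate 1 (circles) and replicate 2 (squares), joined by lines. In 5 of the 6 comparisons the neighbour lies 27.6 to 129 times above the locus, and Mirlet7f-2 lies close to Mir98. Reads with several genomic places are not counted for any gene.

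Between the libraries, all 6 loci were higher in replicate 2, as were 40.6% of the 438 genes that reached a pooled count of 20. The median log2 ratio of replicate 2 to replicate 1 over those genes was -0.21, so the log2 ratios of the loci are also given after taking away this median. Mirlet7f-1 differed the most, with a log2 ratio of 1.15 (95% exact interval 1.02 to 1.28), or 1.36 above the median. It was the 1 locus of the 6 over 2-fold, against 28.3% of genes tested over 2-fold in either direction and 5.48% over 2-fold towards replicate 2. The other 5 lay between 0.27 for Mirlet7c-2 and 0.54 for Mirlet7a-1, or 0.48 and 0.74 above the median. With TMM scaling and with DESeq2 size factors all 6 were again higher in replicate 2, against 45.7% and 49.8% of genes tested. Mirlet7f-1 was again the 1 locus over 2-fold, against 27.2% of genes with TMM and 26.5% with DESeq2 in either direction, and 7.99% and 9.13% towards replicate 2.

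The 6 single-copy family genes likewise all had more CPM in replicate 2, and their median log2 ratio was 0.42 beside 0.41 for the 6 loci. Inside the chromosome 13 cluster the ratios were 1.15 for Mirlet7f-1, 0.54 for Mirlet7a-1 and 0.34 for Mirlet7d. In the X-linked cluster they were 0.33 for Mirlet7f-2 and 0.92 for Mir98. Genes annotated next to each other thus differed between the libraries by unequal amounts.

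**Figure D5:**
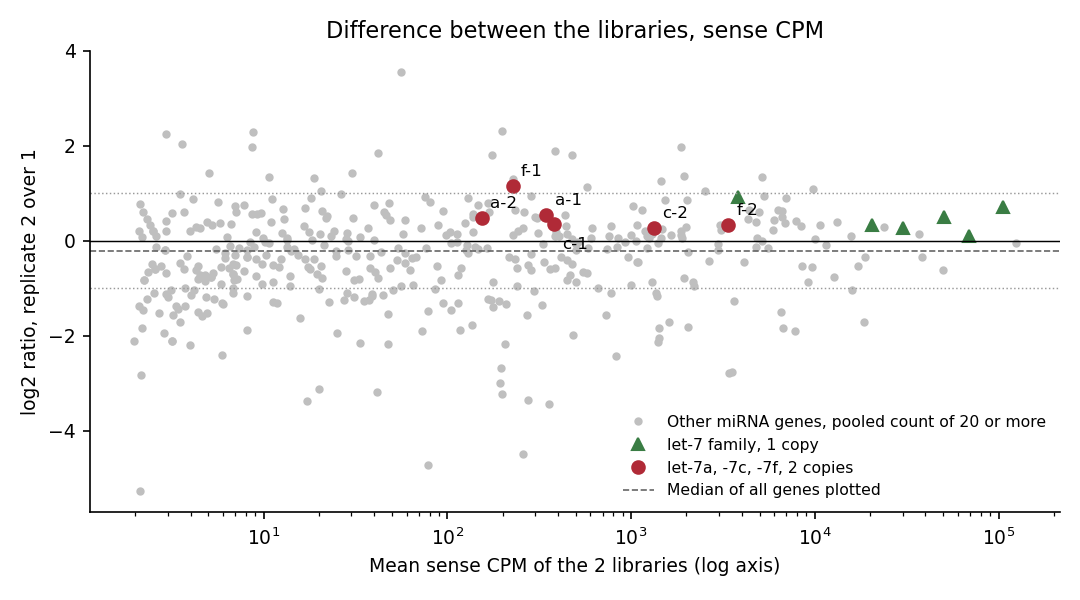
Log2 ratio of sense CPM, replicate 2 over replicate 1 (y axis), against mean sense CPM (x axis, log scale) for miRNA genes that reached a pooled count of 20. The dashed line is the median of all genes plotted, at -0.21, and the dotted lines mark 2-fold. All 6 loci with 2 copies (labelled by copy) and all 6 single-copy family genes lie above 0.

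Expressed genes outside the 6 loci were ranked by likeness of level to each locus over the 2 libraries, by Euclidean distance on log2(CPM + 1). The 6 loci themselves were left out, so the ranking cannot show whether another of them lay nearer. The genes listed here are not of the let-7 family. Nearest to Mirlet7f-2 were Mir378a (distance 0.19) and Mir598 (0.22), and nearest to Mirlet7c-2 were Mir341 (0.098) and Mir181b-2 (0.19). Mirlet7c-1 lay nearest to Mir490 (0.12) and Mir134 (0.18), and Mirlet7a-1 to Mir17 (0.23) and Mir873a (0.30). Mirlet7a-2 lay nearest to Mir467e (0.19) and Mir3475 (0.23), and Mirlet7f-1 to Mir380 (0.12) and Mir153 (0.38). With 2 libraries this likeness is one of level, not of pattern.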

How the data were processed

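MicroRNA sequencing of left cerebral cortex was available as 1 table per library. The deposited values are raw read counts per miRNA gene, with no scaling by the authors. Per the deposited description of the files they use build mm10 and GENCODE M21. The aligner and counter were not given in the sources used here. There are 3 count columns per table, and the stranded column with the larger total was taken as sense. All 2202 gene identifiers matched the M21 miRNA genes. The 4 lines that name no gene (65.2% and 65.1% of reads) were left out of library sizes. Whether reads carrying CAST variants were placed less often was not tested.

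CPM, exact intervals, log2 ratios (0.5 added to each count) and hairpin searches were computed in Python 3.11.15 with scipy 1.17.1, and alternative scalings with edgeR 4.0.16 (TMM) and DESeq2 1.42.0. The ratio and interval steps were tested on simulated data. The CPM of these short RNAs is not divided by gene length unless stated, since a read is taken to cover a short RNA whatever the length of its hairpin. Sequences are from RefSeq tables (GRCm38.p6), which hold hairpins of all 6 loci. The table has no 5p entry for Mirlet7a-2, so let-7a-5p was located in its hairpin.

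Genes named are the 6 loci, the 6 single-copy family genes, same-strand miRNA neighbours within 10 kb and marker genes of cell types. Also named are the 2 expressed genes outside the 6 loci nearest in level to each locus. The loci, lists and rules were chosen with earlier results of these data known.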

Additional observations from a re-analysis of the deposited data

Results flagged for a closer look

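Some lines and columns of the tables outside the sense counts stood far above the limit of 3 counts. The tables list 6203588 reads of replicate 1 and 5928954 of replicate 2 as having several genomic places, without saying which genes they came from. A further 863893 and 573340 reads were placed outside miRNA genes. At Gm24111, the gene opposite Mirlet7f-1, there were 729 antisense counts in replicate 1 and 1394 in replicate 2, each equal to the sense count of Mirlet7f-1 in that library, so they are the same reads counted from the other strand. Over the 6 loci themselves antisense counts came to 0 in replicate 1 and 1 in replicate 2.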

How the results depend on the processing

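The number of loci at 2 CPM or more stayed at 6 with TMM scaling and with either replicate left out. These runs could not have lowered it, since the lowest value was 129 CPM, for Mirlet7a-2 in replicate 1. The number was also 6 under thresholds of 10 and 100 CPM. It was 5 in the column without strand, where reads of Mirlet7f-1 are not counted. The log2 ratios of the 3 pairs kept their direction under every alternative run, but most of these runs could not test it. Leaving out a replicate only returned the ratio of the other library. The column without strand held the same counts for the let-7a and let-7c loci. Gene length moved the ratios by at most 0.10. With all reads of the table as library size the summed level was 2031 CPM in place of 5828, as the larger total requires. In the column without strand, Mirlet7f-1 had 0 counts in both libraries, since its reads are counted only where strand is used. Its sense counts were 729 in replicate 1 and 1394 in replicate 2, so this 0 is not a low level. The number of loci over 2-fold between the libraries was then 0 in place of 1. With 3 counts put in for Mirlet7f-1 the mean log2 ratio to Mirlet7f-2 was -12.39. Neither value measures Mirlet7f-1, and no conclusion is drawn from them. The log2 ratio of Mirlet7f-2 to Mir98 turned from -0.12 to 0.26 when divided by gene length, since the Mir98 hairpin is the longer (108 nt against 83 nt). It was -0.41 without replicate 1 and 0.18 without replicate 2, and the cause of this difference between the libraries was not tested. The scaling set the split of all genes over 2-fold: 24 of 124 were higher in replicate 2 on sense totals, 35 of 119 with TMM and 40 of 116 with DESeq2 size factors. No paired analysis was possible because the labels give a single group. An SD of 2 libraries is itself a rough estimate, and counts of the loci cannot show the depth of the shared 5p strands.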

Other observations

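The seed of the 6 loci occurs at the same place in 11 mature names of the RefSeq table. Besides those of the 12 family genes, these are let-7k and miR-1961, which were looked up after the other values were seen. Mir7k, which makes let-7k, had 3 counts in each library, and Mir1961 had 0 counts in both, which allows up to 0.581 and 0.673 CPM. Mir7j, annotated as the gene of let-7j, has another base in its seed and had 139 counts (26.9 CPM) in replicate 1 and 135 (30.3 CPM) in replicate 2.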
